A study of Homo sapiens with 24 samples.

Results

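The comparison set the transcriptional response of MIAPACA2 to AM-9747 against that of PSN1, gene by gene. It used the 16 libraries of these lines out of 24 in the series and all 21339 genes that passed the filter on low counts. MIAPACA2 and PSN1 are established human pancreatic adenocarcinoma lines, described by the submitters as MTAP-deleted although the genotype field reads WT. AM-9747 is an inhibitor of PRMT5 that cooperates with methylthioadenosine. The 4 groups were MIAPACA2 with DMSO vehicle, MIAPACA2 with AM-9747 at 150 nM, PSN1 with DMSO vehicle and PSN1 with AM-9747 at 100 nM, each sequenced as 4 libraries of poly(A) RNA at day 6. Dose went with line, so a difference between the lines and a difference between the doses cannot be told apart. Nothing in the labels gives the replicates as separate cultures, and p-values then measure only the spread between these libraries, which may be technical.

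A response is the log2 change from vehicle to AM-9747 within a line, and the difference is the MIAPACA2 response minus the PSN1 response. A positive difference therefore means that a gene rose more, or fell less, in MIAPACA2. Levels are CPM (counts per 1e6 counts after TMM scaling), given per library or as mean ± SD (n = 4). Log2 values carry their standard error. A gene counts as called where the Benjamini-Hochberg adjusted p of edgeR's quasi-likelihood test was below 0.05. RNA came from whole cultures, so fewer cells expressing a gene and less of its RNA per cell cannot be told apart.

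PRMT5 places symmetric dimethyl marks on arginines of spliceosomal proteins, histones and other substrates. A cell that has lost MTAP accumulates methylthioadenosine, which occupies part of its PRMT5, and cooperative inhibitors bind that occupied form. Among the programmes compared, the integrated stress response is the one in which kinases sensing amino acid shortage or misfolded protein raise translation of ATF4, which drives genes of amino acid synthesis, amino acid transport and serine metabolism. Genes of DNA replication are classic targets of E2F factors around the start of S phase. Genes of mitosis are repressed by the DREAM complex in resting cells and activated by B-MYB and FOXM1 in the later cell cycle, and many carry a promoter sequence called the cell cycle genes homology region, or CHR.

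Library totals ran from 22.4 to 42.3 M counts. PSN1 varied more than MIAPACA2, with a biological coefficient of variation of 63.8% against 36.5%. The mean correlation of a library with the others of its group was 0.851 to 0.903 in PSN1 vehicle, 0.937 to 0.947 in PSN1 AM-9747 and 0.959 to 0.971 in MIAPACA2. Mitochondrial transcripts took 17.4 to 43.8% of the counts in PSN1 vehicle and 7.98 to 31.1% in PSN1 AM-9747, and 6.58 to 20.5% over both MIAPACA2 groups. In an exact two-sided permutation test that share did not differ between treatments at the 0.05 level in PSN1 (p = 0.143) or in MIAPACA2 (p = 1). In PSN1 the number of genes with a count was 16646 to 24738 under vehicle and 22386 to 27120 under AM-9747 (exact permutation p = 0.0857). The 5 epithelial markers, KRT8 and KRT18 among them, summed to 1200 to 1607 CPM in MIAPACA2 and 1611 to 2265 CPM in PSN1, but KRT7 and EPCAM were near 0 in MIAPACA2. The 6 fibroblast markers summed to 1682 to 2864 CPM in MIAPACA2 vehicle and 980 to 1628 with AM-9747, nearly all from COL1A2, and to 42.4 to 66.5 and 154 to 188 CPM in PSN1. The 4 acinar markers had 0 counts in MIAPACA2. In PSN1 they summed to 83.9 to 112 CPM with vehicle and 0.545 to 2.52 CPM with AM-9747, almost all from the trypsinogen gene PRSS1, whose near-identical copies make its count uncertain. Leukocyte markers summed to 71.8 CPM or less, endothelial markers to 41.1 CPM or less and endocrine markers to 0.198 CPM or less. The part of these other cell types in the differences was not tested.

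The responses of the lines differed at 1215 of 21339 genes (5.69%). The difference was positive at 651 of them (3.05% of genes tested) and negative at 564 (2.64%), and 1131 of the 1215 differed 2-fold or more. At an unadjusted p below 0.05 edgeR's test had 5034 of the 21339 genes. Of the same genes DESeq2 called 1617 positive and 1251 negative, and voom 2161 and 2614. List counts by these measures are to be read beside those totals. Each line was also fitted on its own 8 libraries. In MIAPACA2 2357 of 20728 genes were called (11.4%), of which 1098 rose (5.3% of genes tested) and 1259 fell (6.07%). In PSN1 1669 of 21185 genes were called (7.88%), of which 699 rose (3.3%) and 970 fell (4.58%). Of the 651 genes with a positive difference, 333 fell in PSN1 without a call in MIAPACA2, 128 rose in MIAPACA2 without a call in PSN1, and 33 rose in MIAPACA2 and fell in PSN1. Of the 564 with a negative difference, 244 rose in PSN1 without a call in MIAPACA2, 126 fell in MIAPACA2 without a call in PSN1, and 32 fell in MIAPACA2 and rose in PSN1. A further 130 and 152 were called in neither line on its own. Across all genes the median difference was -0.04, and among the 9964 genes at 5 CPM or more in each line it was -0.24. Of those 9964, 815 were called (8.18%), 382 positive (3.83%) and 433 negative (4.35%). The size of the count depended on single libraries. It was 4287, of which 2766 negative, without PSN1 vehicle replicate 1. It was 567 to 796 without any 1 of MIAPACA2 vehicle replicates 1 to 3, MIAPACA2 AM-9747 replicates 1, 2 and 4, PSN1 vehicle replicates 2 and 4 and PSN1 AM-9747 replicates 1 and 2. The MIAPACA2 count was 1109 to 1330 without MIAPACA2 vehicle replicate 3 or AM-9747 replicate 1, 2 or 4. The PSN1 count was 4172 without PSN1 vehicle replicate 1, and 460 to 846 without PSN1 vehicle replicate 2 or 4 or any PSN1 AM-9747 replicate.

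**Figure D1:**
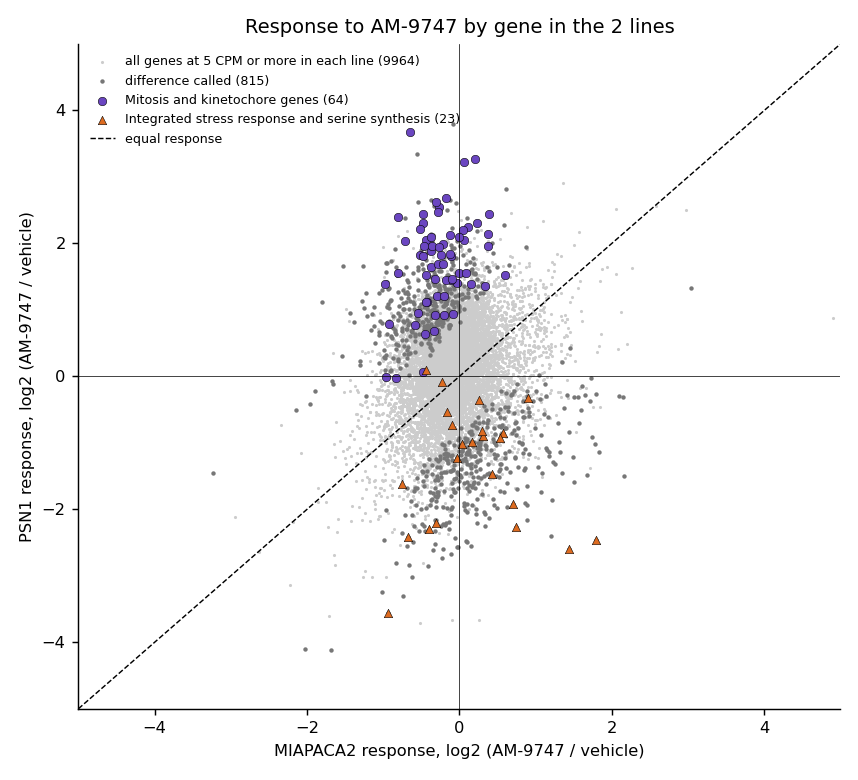
Log2 response to AM-9747 in MIAPACA2 (x axis) and PSN1 (y axis) for the 9964 genes at 5 CPM or more in each line, with the 815 genes whose difference was called and the mitosis and integrated stress response members marked; 2 genes lie outside the axes. The mitosis members lie above the line of equal response, with a median over the whole list of 1.75 in PSN1 and -0.29 in MIAPACA2, and most stress response members lie below it.

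Genes of the integrated stress response and serine synthesis fell in PSN1 and did not fall together in MIAPACA2. Of 30 members, 17 fell (4.58% of all genes tested did) and 0 rose (3.3%) in PSN1, with a median response of -1.12. In MIAPACA2 8 rose (5.3% of all genes tested did) and 3 fell (6.07%), with a median of 0.30. The difference was positive and called at 18 members (3.05% of all genes tested) with a median of 1.48 against -0.04 over all genes. No member had a called negative difference, nor one at an unadjusted p below 0.05, and DESeq2 and voom also gave 0 adjusted calls (voom had 1 at an unadjusted p below 0.05). The list and its members were chosen with earlier results of these data known, so the count describes them and is not independent evidence. Their starting levels were unequal: the median log2 ratio of MIAPACA2 over PSN1 was -2.19 with vehicle and -0.63 with AM-9747, and the gap was smaller with AM-9747 for 26 of 30 members.

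ASNS and CHAC1, which had called differences and an amino acid response motif in their promoters, are shown from 250 bases before to 50 after the start (RefSeq, GRCh38.p14). Capitals mark the motif TGATGNAA, searched on both strands, whose core letters are bound by ATF4 with a C/EBP partner in known targets. ASNS is at chr7:97872359-97872658 on the minus strand and CHAC1 at chr15:40953221-40953520 on the plus strand, where the match reads on the opposite strand.
ASNS: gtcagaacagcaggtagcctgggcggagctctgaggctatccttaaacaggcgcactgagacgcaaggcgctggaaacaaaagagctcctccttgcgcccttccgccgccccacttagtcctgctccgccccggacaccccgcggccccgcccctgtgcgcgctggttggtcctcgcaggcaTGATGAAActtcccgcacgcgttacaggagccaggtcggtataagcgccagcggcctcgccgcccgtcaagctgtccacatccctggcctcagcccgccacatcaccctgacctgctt
CHAC1: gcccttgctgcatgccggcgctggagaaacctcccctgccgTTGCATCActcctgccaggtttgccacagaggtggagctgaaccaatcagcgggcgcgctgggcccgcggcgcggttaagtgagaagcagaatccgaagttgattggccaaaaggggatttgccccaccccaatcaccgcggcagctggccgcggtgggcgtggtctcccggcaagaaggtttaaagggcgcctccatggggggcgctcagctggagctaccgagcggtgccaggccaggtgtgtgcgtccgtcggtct
The motif was in 1.93% of the 12570 promoters of genes tested, from which the members come, and in 3.67% of all 27305 promoters of that length. It was in 4 of the 25 list members with a promoter in the table (16%), which were ASNS, CHAC1, SLC3A2 and SLC7A1. The difference was called at 3 of these 4 members and at 12 of the 21 without it. A match describes the letters only.

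ASNS, asparagine synthetase (ENSG00000070669, GRCh38 chromosome 7, 97852118 to 97872542), was at 36.7, 30.7, 31.6 and 33.7 CPM in the MIAPACA2 vehicle libraries and 89.3, 91.5, 81.8 and 96.4 with AM-9747. In PSN1 it was at 420, 284, 325 and 281 CPM with vehicle and 51.2, 52.3, 47.5 and 65.7 with AM-9747. No library overlapped between treatments in either line. Taken line by line, treatments did not overlap at 18.3% of all genes tested in MIAPACA2 and 18.8% in PSN1. The line with the higher ASNS level changed: PSN1 was above MIAPACA2 in every vehicle library and below it in every AM-9747 library. The difference was 4.03 ± 0.24 (adjusted p = 8.92e-08), from a 2.71-fold rise in MIAPACA2 and a 6.05-fold fall in PSN1.

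CHAC1 (chromosome 15, 40952962 to 40956519), which degrades glutathione and is a known target of the ATF4 branch, was at 2.98, 4.29, 4.71 and 5 CPM in MIAPACA2 vehicle and 5.55, 5.25, 6.95 and 4.8 with AM-9747. Those groups overlapped. In PSN1 it was at 47.1, 62.9, 73.7 and 44.9 CPM with vehicle and 3.15, 4.04, 5.49 and 4.67 with AM-9747, so that all PSN1 AM-9747 libraries reached the MIAPACA2 range. The difference was 4.13 ± 0.35 (adjusted p = 7.74e-06).

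TRIB3, a pseudokinase induced by ATF4, was at 26.5, 26.6, 24.9 and 23 CPM in MIAPACA2 vehicle and 42.5, 39, 43 and 44.8 with AM-9747. In PSN1 it was at 489, 257, 289 and 231 CPM with vehicle and 83.1, 69.5, 55.7 and 54.5 with AM-9747. It thus moved in opposite directions without overlap in either line (difference 3.01 ± 0.31, adjusted p = 3.86e-05). NUPR1, a stress-induced chromatin regulator, did so as well, rising from 2.39 ± 0.25 to 8.33 ± 2.11 CPM in MIAPACA2 and falling from 103 ± 45.7 to 18.7 ± 6.91 CPM in PSN1 (difference 4.26 ± 0.46, adjusted p = 5.67e-05). PSN1 vehicle replicate 3 stood above the other NUPR1 vehicle values, at 172 CPM against 76.3 to 83.6.

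The enzymes of serine synthesis did not behave as 1 block. PHGDH, which takes the first step, was at 29.8, 26.3, 30.1 and 22.2 CPM in MIAPACA2 vehicle and rose to 40, 40.2, 52.3 and 44.8. In PSN1 it fell from 476, 199, 243 and 264 CPM to 103, 89.5, 65.6 and 55.5 (difference 2.62 ± 0.36, adjusted p = 0.000636). PSAT1, which takes the next step, was at 87.8 ± 8.81 and 66.5 ± 3.23 CPM in MIAPACA2 (adjusted p = 0.0501) and fell from 112 ± 48.4 to 22.8 ± 2.98 CPM in PSN1 (adjusted p = 0.00201). Its difference was 1.90 ± 0.32 (adjusted p = 0.00236).

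A pair of members fell in both lines and further in PSN1. PCK2, mitochondrial phosphoenolpyruvate carboxykinase, fell from 55.2 ± 5.46 to 29 ± 3.74 CPM in MIAPACA2 and from 68.2 ± 22.1 to 5.79 ± 0.65 CPM in PSN1. Its responses were -0.93 ± 0.14 and -3.56 ± 0.28 (difference 2.63 ± 0.29, adjusted p = 7.91e-05). CBS, which starts transsulfuration, had responses of -0.67 ± 0.11 and -2.42 ± 0.30 (difference 1.75 ± 0.32, adjusted p = 0.00443). CTH, the next enzyme of that route, was called in PSN1 only, at -2.20 ± 0.41, against 0.50 ± 0.24 in MIAPACA2 (difference 2.7 ± 0.49, adjusted p = 0.00438).

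Amino acid transporters of the list differed as well. SLC7A11, the cystine carrier, rose from 1.51 ± 0.46 to 3.67 ± 0.49 CPM in MIAPACA2 and fell from 22.4 ± 3.66 to 11.3 ± 0.32 CPM in PSN1 (difference 2.26 ± 0.35, adjusted p = 0.00151). SLC7A5, the light chain of the large neutral amino acid carrier, rose from 59.2 ± 5 to 85.7 ± 14.7 CPM and fell from 312 ± 73.8 to 164 ± 11.7 CPM (difference 1.46 ± 0.25, adjusted p = 0.00318). Its partner SLC3A2 rose in MIAPACA2, from 53.8 ± 4.95 to 80.3 ± 2.86 CPM, and was at 248 ± 23.5 and 138 ± 38.5 CPM in PSN1 (adjusted p = 0.0552 in PSN1). The SLC3A2 difference was 1.42 ± 0.26 (adjusted p = 0.00463).

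The regulators moved less than several of their targets. ATF4 mRNA was at 206 ± 52.8 and 203 ± 33.5 CPM in MIAPACA2 and fell from 1111 ± 114 to 476 ± 115 CPM in PSN1. Its difference of 1.2 ± 0.31 (adjusted p = 0.0319) was lost without any 1 of MIAPACA2 vehicle replicates 2 and 3, MIAPACA2 AM-9747 replicates 1, 2 and 4, PSN1 vehicle replicate 2 and PSN1 AM-9747 replicates 1 and 2, with a highest adjusted p of 0.112. DDIT3, which encodes the stress factor CHOP, was at 18.1 ± 5.08 and 24.4 ± 3.55 CPM in MIAPACA2 and fell from 101 ± 44.5 to 36.6 ± 4.73 CPM in PSN1 (difference 1.89 ± 0.38, adjusted p = 0.00808). ALDH1L2, a mitochondrial folate enzyme, was at 0.558 CPM or less in all but 1 of the 8 MIAPACA2 libraries, which had 0.653 CPM, and fell 7.3-fold in PSN1, from 70.5 ± 35.3 to 9.65 ± 3.95 CPM (difference 4.15 ± 0.83, adjusted p = 0.00795). SESN2, a stress-induced inhibitor of mTORC1 that is also a p53 target, was at 18.5 ± 2.88 and 14.9 ± 3.84 CPM in MIAPACA2 and fell from 38 ± 14.2 to 8.23 ± 1.27 CPM in PSN1 (difference 1.89 ± 0.36, adjusted p = 0.00654).

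Genes of mitosis and the kinetochore rose in PSN1 and did not rise together in MIAPACA2. Of 66 members, 45 rose (3.3% of all genes tested did) and 0 fell (4.58%) in PSN1, with a median response of 1.75. In MIAPACA2 1 rose (5.3% of all genes tested did) and 11 fell (6.07%), with a median of -0.29. The difference was negative at each of the 66. It was called at 51, all negative (2.64% of all genes tested), with a median of -1.98. DESeq2 called 55 and voom 64. Without scaling factors 4 rather than 11 members fell in MIAPACA2, and 50 rose in PSN1. With vehicle, 64 of the 66 were higher in MIAPACA2 and the median log2 ratio of MIAPACA2 over PSN1 was 2.08. With AM-9747 30 were higher and the median was -0.04, and the gap was smaller for 57. This list, like the other lists, was chosen with earlier results known.

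The promoters of INCENP and CDC20, called members with the CHR motif, are shown over the same 250 bases before to 50 after the start (RefSeq, GRCh38.p14). INCENP is at chr11:62123761-62124060 and CDC20 at chr1:43358731-43359030, both on the plus strand. Capitals mark TTTGAA, or its reverse complement where the match is on the minus strand, the letters through which the MuvB core of DREAM is known to bind.
INCENP: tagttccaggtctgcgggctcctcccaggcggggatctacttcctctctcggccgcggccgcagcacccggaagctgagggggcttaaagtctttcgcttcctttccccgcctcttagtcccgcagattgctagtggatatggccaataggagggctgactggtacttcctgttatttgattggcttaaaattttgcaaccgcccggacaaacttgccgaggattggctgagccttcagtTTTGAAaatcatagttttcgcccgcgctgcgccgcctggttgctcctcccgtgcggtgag
CDC20: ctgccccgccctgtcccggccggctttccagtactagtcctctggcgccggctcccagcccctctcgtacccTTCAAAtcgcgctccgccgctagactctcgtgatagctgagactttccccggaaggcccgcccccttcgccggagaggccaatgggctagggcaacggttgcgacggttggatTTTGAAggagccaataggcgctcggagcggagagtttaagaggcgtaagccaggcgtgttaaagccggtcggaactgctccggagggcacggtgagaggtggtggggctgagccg
TTTGAA on either strand was in 34 of the 55 mitosis members with a promoter in the table (61.8%) and in 5% of the 40 replication promoters. It was in 10.1% of the 12570 promoters of genes tested, from which the members come, and in 15.4% of all 27305 promoters. CCAAT, the letters bound by NF-Y, was in 70.9% of mitosis, 55% of replication and 56% of stress response promoters. Its share was 36.3% in genes tested and 35.7% in all. The difference was called at 26 of the 34 members with TTTGAA and 16 of the 21 without it.

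INCENP, the scaffold of the chromosomal passenger complex (ENSG00000149503, GRCh38 chromosome 11, 62123973 to 62153163), was at 26.8, 47, 40.6 and 23.9 CPM in MIAPACA2 vehicle and 22.1, 14.3, 34.2 and 17.6 with AM-9747. These groups overlapped. In PSN1 it was at 15.2, 17.1, 14.4 and 15.5 CPM with vehicle and 175, 181, 259 and 184 with AM-9747, a 12.8-fold rise without overlap. The difference of -4.33 ± 0.38 (adjusted p = 1.1e-05) was the most negative in the list.

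AURKA, the spindle pole kinase Aurora A, was at 62.4, 82.1, 72.1 and 63.9 CPM in MIAPACA2 vehicle and 74.1, 72.1, 77.1 and 79.1 with AM-9747. In PSN1 it was at 65.4, 50.2, 30.7 and 39 CPM with vehicle and 261, 214, 195 and 213 with AM-9747. MIAPACA2 stayed in 1 range while PSN1 rose from at or below that range to above it (difference -2.14 ± 0.29, adjusted p = 0.000548). CDC20, an activator of the anaphase-promoting complex, had the same form: 57.3, 71.4, 70 and 52.8 CPM against 39.4, 44.9, 61.2 and 48.6 in MIAPACA2, and 44.1, 44.9, 64.2 and 41.3 CPM against 182, 145, 142 and 143 in PSN1. Its difference was -2.03 ± 0.27 (adjusted p = 0.000546).

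KIF20A, a kinesin of cytokinesis, moved in opposite directions. It was at 96.5, 94.5, 96.1 and 93.5 CPM in MIAPACA2 vehicle and 55.1, 58.4, 52.1 and 66.2 with AM-9747, and at 16.9, 16.4, 8.56 and 19 CPM in PSN1 vehicle and 51, 66.7, 64.9 and 67.5 with AM-9747. The AM-9747 libraries of the lines lay in 1 range (difference -2.75 ± 0.29, adjusted p = 5.08e-05). TOP2A, the topoisomerase that untangles replicated DNA, fell from 338 ± 124 to 172 ± 26.2 CPM in MIAPACA2 and rose from 30.5 ± 12.2 to 80.3 ± 21.6 CPM in PSN1 (difference -2.37 ± 0.42, adjusted p = 0.00408). CDCA5, which holds sister chromatids together, had responses of -0.81 ± 0.22 and 2.40 ± 0.37 (difference -3.21 ± 0.45, adjusted p = 0.000636).

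MKI67, the proliferation antigen Ki-67, was at 155 ± 53.9 and 120 ± 23.2 CPM in MIAPACA2 and rose from 22.2 ± 5.16 to 140 ± 13.5 CPM in PSN1 (difference -3.03 ± 0.34, adjusted p = 0.000104). CCNB1, the mitotic cyclin B1, was at 151 ± 25.9 and 131 ± 9.68 CPM in MIAPACA2 and rose from 34.8 ± 26 to 139 ± 45 CPM in PSN1 (difference -2.20 ± 0.49, adjusted p = 0.0156). PSN1 vehicle replicate 1 had 73.8 CPM of CCNB1 and the other vehicle libraries 20.8 to 22.9. SGO2, which protects centromeric cohesin, had a difference of -3.15 ± 0.83 (adjusted p = 0.0347). That call was lost without any 1 of MIAPACA2 vehicle replicates 1 to 3, MIAPACA2 AM-9747 replicates 1, 2 and 4, PSN1 vehicle replicates 2 and 4 and PSN1 AM-9747 replicates 1, 2 and 4, with a highest adjusted p of 0.0797.

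**Figure D2:**
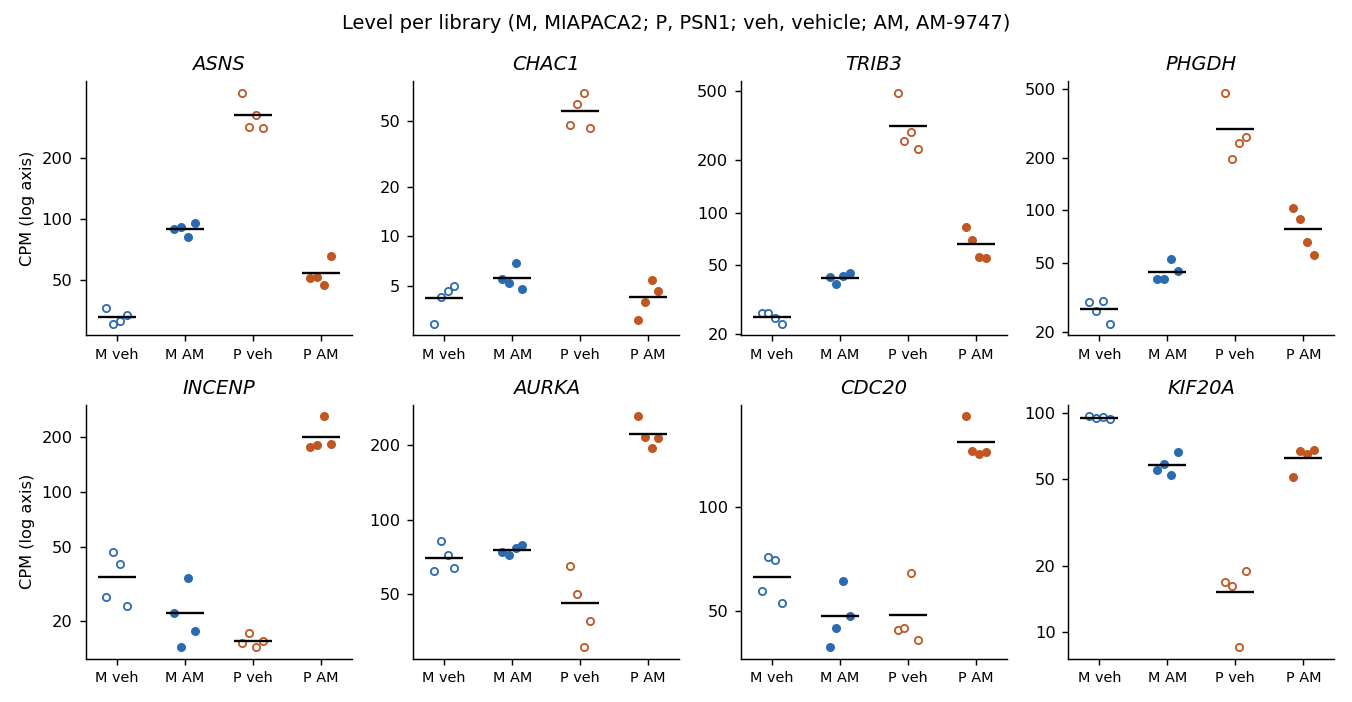
CPM in each of the 16 libraries (points, log axis) by group for 4 members of the stress response list, ASNS, CHAC1, TRIB3 and PHGDH, and 4 of the mitosis list, INCENP, AURKA, CDC20 and KIF20A; the bars are group means. For ASNS the PSN1 points fall from 281 to 420 CPM to 47.5 to 65.7 CPM, and for INCENP they rise from 14.4 to 17.1 CPM to 175 to 259 CPM.

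DNA replication and G1/S genes included falls in MIAPACA2 and rises in PSN1, with 7 members called in opposite directions. Of all 21339 genes tested, 32 were called as falling in MIAPACA2 and rising in PSN1. Of 49 members, 26 fell (6.07% of all genes tested did) and 0 rose (5.3%) in MIAPACA2, with a median response of -0.67. In PSN1 14 rose (3.3% of all genes tested did) and 0 fell (4.58%), with a median of 1.02. The difference was called at 27 members, all negative (2.64% of all genes tested), with a median of -1.59, and DESeq2 called 33, all negative. Without scaling factors 19 fell in MIAPACA2 and 19 rose in PSN1. With vehicle the median log2 ratio of MIAPACA2 over PSN1 was 1.68, with AM-9747 0.17, and the gap was smaller for 42 of 49.

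The helicase subunit MCM2 was at 63.9, 108, 95 and 46.2 CPM in MIAPACA2 vehicle and 31.6, 31.2, 61.4 and 36.1 with AM-9747, and at 18.3, 7.28, 13.2 and 13.9 CPM in PSN1 vehicle and 59.4, 32, 44 and 37 with AM-9747. The MIAPACA2 groups overlapped through AM-9747 replicate 3, and the PSN1 groups did not (difference -2.67 ± 0.45, adjusted p = 0.00275). MCM4, another subunit, fell from 103 ± 28.2 to 38.1 ± 8.85 CPM in MIAPACA2 and was at 18.5 ± 5.03 and 35.8 ± 5.94 CPM in PSN1 (adjusted p = 0.0501 in PSN1). Its difference was -2.39 ± 0.35 (adjusted p = 0.000878).

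FEN1, the flap nuclease of lagging-strand synthesis, fell from 38.3 ± 8.86 to 21.2 ± 2.01 CPM in MIAPACA2 and rose from 12 ± 4.48 to 45.4 ± 10.6 CPM in PSN1 (difference -2.77 ± 0.37, adjusted p = 0.000546). The sliding clamp PCNA fell from 148 ± 16.6 to 88.7 ± 13.4 CPM and rose from 68.7 ± 48.7 to 199 ± 35.7 CPM (difference -2.27 ± 0.48, adjusted p = 0.0114). E2F1, a factor that drives such genes, fell from 32.1 ± 3.84 to 18.3 ± 2.15 CPM and rose from 17.2 ± 1.69 to 30.9 ± 4.27 CPM (difference -1.66 ± 0.25, adjusted p = 0.00107). Each of these 3 genes moved in opposite directions.

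Other members were called in 1 line only. CDC45, a helicase cofactor, fell from 20.1 ± 1.8 to 5.07 ± 0.69 CPM in MIAPACA2 and was at 4.83 ± 1.59 and 4.76 ± 0.85 CPM in PSN1 (difference -1.96 ± 0.38, adjusted p = 0.00687). GINS4, of the GINS part of the helicase, fell from 220 ± 51.7 to 66.3 ± 9.02 CPM in MIAPACA2 and was at 2.06 ± 1.08 and 4.59 ± 1.69 CPM in PSN1 (difference -2.86 ± 0.43, adjusted p = 0.00107). Its partner GINS1 was the reverse: it was at 20.4 ± 2.95 and 21.8 ± 1.47 CPM in MIAPACA2 and rose from 8.96 ± 1.65 to 28.8 ± 2.99 CPM in PSN1 (difference -1.59 ± 0.26, adjusted p = 0.00226). RRM1, of ribonucleotide reductase, had a difference of -2.75 ± 0.68 (adjusted p = 0.0261). That call was lost without any 1 of MIAPACA2 vehicle replicates 2 and 3, MIAPACA2 AM-9747 replicates 1, 2 and 4, PSN1 vehicle replicates 2 and 4 and PSN1 AM-9747 replicate 1, with a highest adjusted p of 0.101.

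The mean mitochondrial share in PSN1 was 33.1% with vehicle and 20% with AM-9747. Within each PSN1 group replicate 1 had the lowest share, 17.4% with vehicle and 7.98% with AM-9747. It also had the highest sums of its group for both the mitosis list (1598 and 4146 CPM) and the stress response list (7405 and 3186 CPM). For the stress response list that is the reverse of the order of the group means. Summed mitosis CPM was 1140 to 1598 in PSN1 vehicle and 3310 to 4146 in PSN1 AM-9747, against 3124 to 4445 and 2831 to 3358 in MIAPACA2. Summed stress response CPM was 5349 to 7405 and 2601 to 3186 in PSN1, against 1938 to 2303 and 1901 to 2137 in MIAPACA2. With the share as a covariate the mitosis list had 50 negative calls and a median of -1.74. The replication list then had 29 negative calls and a median of -1.49, and the stress response list 22 positive calls and a median of 1.65. Without PSN1 vehicle replicates 2 and 3, an alternative chosen after the data were seen, the mitosis list had 50 negative calls and a median of -1.76. The replication list had 24 and -1.45 there, and the stress response list 19 positive calls and 1.51. Leaving out each of the 16 libraries gave 38 to 59 negative mitosis calls, 18 to 37 negative replication calls and 15 to 20 positive stress response calls, with 0 calls in the other direction in each list.

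**Figure D3:**
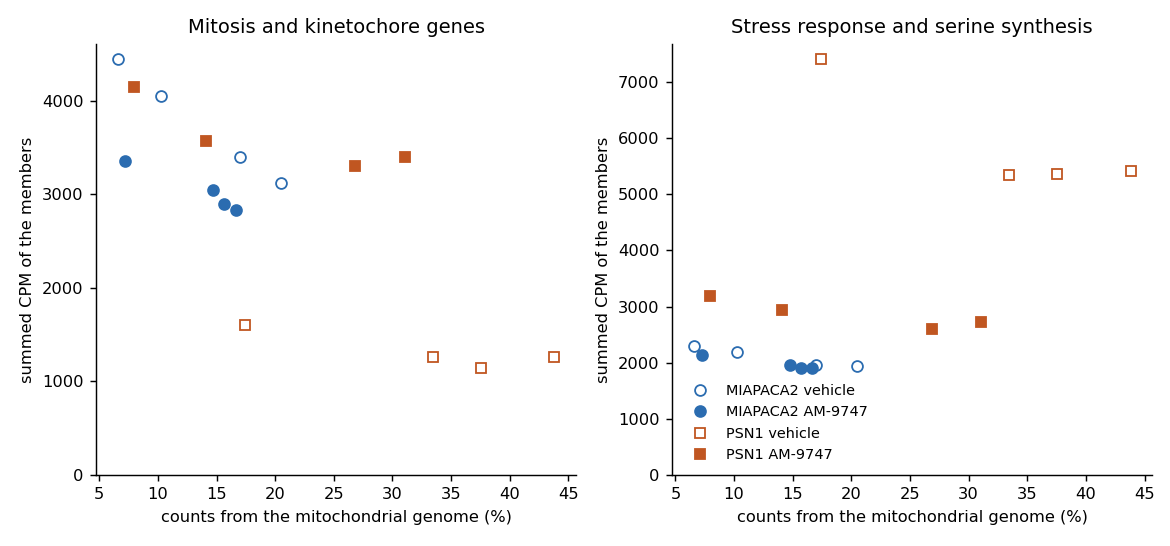
Summed CPM of the mitosis list and of the integrated stress response list (y axes) against the percent of counts from mitochondrial genes (x axis), 1 point per library, by group. PSN1 AM-9747 libraries (3310 to 4146 CPM of mitosis genes) lie above PSN1 vehicle libraries (1140 to 1598 CPM), and the mitochondrial shares of these groups overlap.

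Of the genes called in each line and in the difference, 51 protein-coding genes at 5 CPM or more had opposite responses. Of these, 20 rose in MIAPACA2 and fell in PSN1, and 6 of the 20 were stress response members: NUPR1, ASNS, SLC7A11, TRIB3, PHGDH and SLC7A5. The other 31 fell in MIAPACA2 and rose in PSN1, among them 5 mitosis and 7 replication members. Without the limits on type and level, 33 and 32 of all 21339 genes tested were called in these directions. The lists were chosen with earlier results known, so their share in these genes is a description. ASS1, argininosuccinate synthase of arginine synthesis, rose from 28.9, 21.4, 21.3 and 23.8 CPM to 58.9, 52.3, 55.4 and 54.1 in MIAPACA2. In PSN1 it fell from 576, 271, 296 and 327 CPM to 106, 113, 95.2 and 89.5 (difference 3.07 ± 0.30, adjusted p = 3.26e-05). PSN1 kept the higher level in both treatments.

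Several other genes that rose in MIAPACA2 and fell in PSN1 began at low levels in MIAPACA2. CFB, complement factor B, rose from 2.66 ± 0.61 to 5.66 ± 1.33 CPM and fell from 494 ± 48.8 to 137 ± 45.7 CPM (difference 2.94 ± 0.36, adjusted p = 0.000197). APOE, the lipid carrier apolipoprotein E, rose from 3.2 ± 1.67 to 10.9 ± 3.98 CPM and fell from 233 ± 21.2 to 115 ± 28.3 CPM (difference 2.80 ± 0.47, adjusted p = 0.00263). GALNT12, an enzyme that starts O-linked glycans, rose from 1.88 ± 0.59 to 4.05 ± 1.27 CPM and fell from 90.4 ± 18.2 to 39.2 ± 8.73 CPM (difference 2.32 ± 0.38, adjusted p = 0.00192). AKNA, an AT-hook protein, rose from 3.64 ± 0.93 to 7.63 ± 1.22 CPM and fell from 14.4 ± 2.93 to 4.34 ± 1.23 CPM, so its lines changed order (difference 2.80 ± 0.41, adjusted p = 0.000949).

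In the reverse direction, PEG10, a retrotransposon-derived imprinted gene, fell from 346 ± 69.2 to 160 ± 20.4 CPM in MIAPACA2 and rose from 14.3 ± 3.7 to 29.4 ± 4.5 CPM in PSN1 (difference -2.16 ± 0.29, adjusted p = 0.000589). P3H2, a collagen prolyl hydroxylase, fell from 4.59 ± 0.69 to 1.78 ± 0.85 CPM and rose from 4 ± 1.16 to 21.9 ± 5.81 CPM (difference -3.81 ± 0.51, adjusted p = 0.000546). TGFBI, a secreted matrix protein induced by TGF-beta, fell from 218 ± 35.3 to 149 ± 17.9 CPM and rose from 30.5 ± 10.7 to 188 ± 10.4 CPM (difference -3.17 ± 0.32, adjusted p = 3.71e-05). APOBEC3B, a cytidine deaminase with close family copies, fell from 56.8 ± 4.19 to 34.6 ± 5.51 CPM and rose from 3.36 ± 2.32 to 17.6 ± 2.43 CPM (difference -3.10 ± 0.48, adjusted p = 0.00148).

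**Figure D4:**
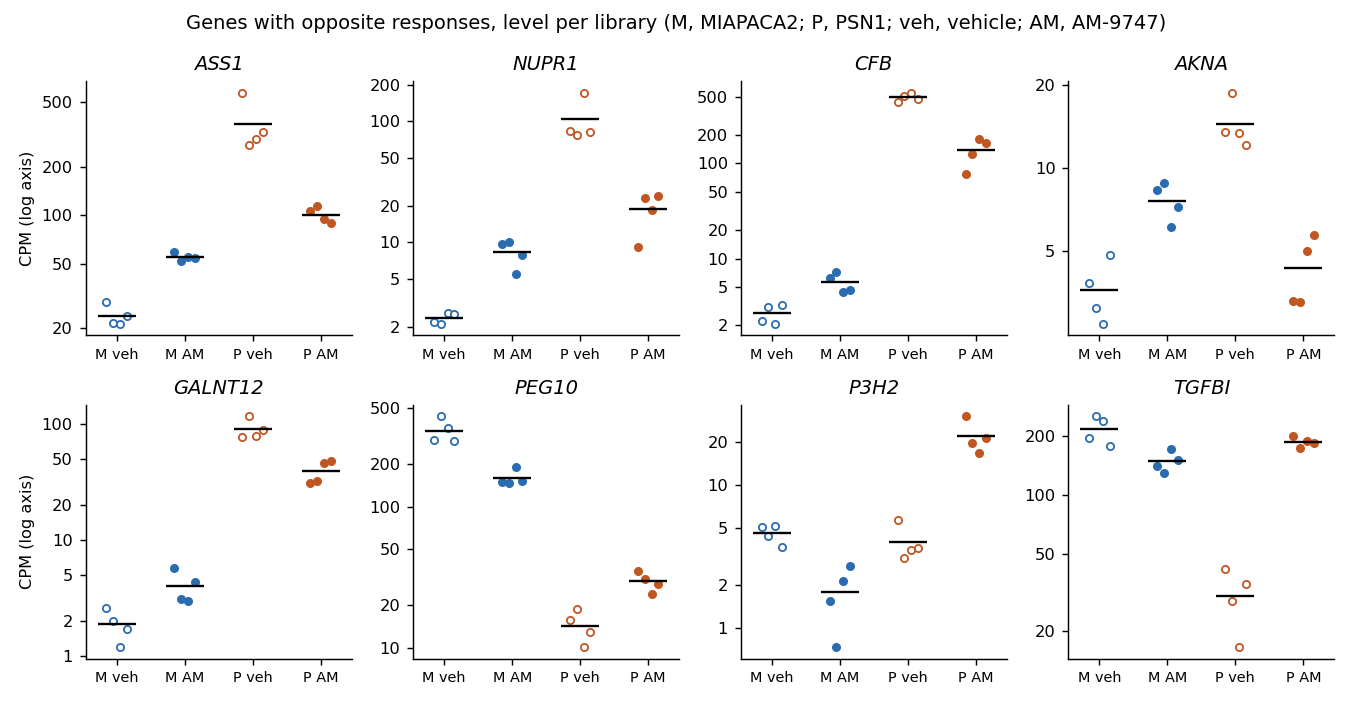
CPM in each of the 16 libraries (points, log axis) by group for ASS1, NUPR1, CFB, AKNA, GALNT12, PEG10, P3H2 and TGFBI, which were called in opposite directions in the lines; the bars are group means. ASS1 rises from 21.3 to 28.9 CPM to 52.3 to 58.9 CPM in MIAPACA2 while it falls from 271 to 576 CPM to 89.5 to 113 CPM in PSN1.

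The largest differences by the naming rule included genes almost absent from 1 line, for which counts are given and no fold. In the next 4 genes all MIAPACA2 vehicle libraries had 0 counts, which allows up to 3 counts each, and MIAPACA2 AM-9747 libraries had few. CD177, a surface protein best known from neutrophils, had at most 13 counts in MIAPACA2 AM-9747 and fell from 157 ± 81.5 to 16 ± 5.61 CPM in PSN1. F2RL3, the thrombin receptor PAR4, had at most 24 counts and fell from 25.7 ± 2.89 to 7.77 ± 2.19 CPM. BIRC7, an inhibitor of apoptosis, had at most 8 counts and fell from 53.6 ± 22.5 to 8.32 ± 0.82 CPM. EPHB6, a kinase-dead ephrin receptor, had at most 10 counts and fell from 147 ± 38.6 to 30.9 ± 3.44 CPM. These positive differences thus rest on falls in PSN1 and on counts near the floor in MIAPACA2. The EPHB6 call was lost without any 1 of MIAPACA2 vehicle replicates 1 to 4, MIAPACA2 AM-9747 replicate 4, PSN1 vehicle replicates 2 and 4 and PSN1 AM-9747 replicates 1, 2 and 4, with a highest adjusted p of 0.99987. MORC4, PRSS21, DNALI1, NOX5 and PCK1 were also near the floor in MIAPACA2, with at most 2 counts in a vehicle library and at most 26 with AM-9747. PRSS21 and PCK1 fell in PSN1, and MORC4, DNALI1 and NOX5 were not called there. The differences at PRSS21, DNALI1 and NOX5 were each lost without any 1 of 12 single libraries. Those were MIAPACA2 vehicle replicates 1 to 4, MIAPACA2 AM-9747 replicate 4, PSN1 vehicle replicates 2 and 4 and all PSN1 AM-9747 replicates for each gene, with PSN1 vehicle replicate 3 for PRSS21 and MIAPACA2 AM-9747 replicate 1 for DNALI1 and NOX5. The PCK1 call was lost without MIAPACA2 AM-9747 replicate 4.

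KLK6, a secreted kallikrein protease, was at the floor in the other line: it fell from 444 ± 56.5 to 203 ± 42.2 CPM in MIAPACA2 and had at most 1 count in a PSN1 vehicle library and 42 in a PSN1 AM-9747 library. NEURL1B, a ubiquitin ligase of Notch signalling, fell from 32.9 ± 6.03 to 18.3 ± 4.56 CPM in MIAPACA2 and had 0 counts in PSN1 vehicle and at most 13 with AM-9747. RGS4, which turns off G protein signals, fell from 213 ± 71.9 to 111 ± 30.4 CPM in MIAPACA2 and rose in PSN1 from 0.448, 0, 0 and 0.331 CPM to 24, 10.9, 6.54 and 8.98 (difference -6.70 ± 0.76, adjusted p = 0.000104). FSTL1, a secreted follistatin-like protein, was at 0.746 ± 0.33 and 0.886 ± 0.38 CPM in MIAPACA2 and rose in PSN1 from 0.448, 0.291, 0 and 0 CPM to 28.6, 22.7, 13.7 and 13.9 (difference -6.36 ± 0.99, adjusted p = 0.00151). The PSN1 rises of RGS4 and FSTL1 start from 0 counts in 2 of 4 vehicle libraries, so their fitted size is loosely set.

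NGFR, the low-affinity neurotrophin receptor, started from 0 counts in 3 of 4 PSN1 vehicle libraries and reached 5.45 ± 1.41 CPM, while in MIAPACA2 it rose from 5.69 ± 1.58 to 10.3 ± 1.26 CPM (difference -5.46 ± 0.85, adjusted p = 0.00148). DKK1, a secreted Wnt antagonist, fell from 93.6 ± 4.95 to 63.5 ± 4.09 CPM in MIAPACA2 and rose from 6.73 ± 6.16 to 69.3 ± 19.1 CPM in PSN1, so that the AM-9747 levels of the lines met (difference -3.90 ± 0.89, adjusted p = 0.0177). HDAC9, a class II histone deacetylase, had 55.6 ± 19 CPM with vehicle and 40.5 ± 6.02 CPM with AM-9747 in MIAPACA2. The PSN1 libraries had 0.12 CPM or less with vehicle and 0.522 to 2.38 CPM with AM-9747 (difference -5.17 ± 0.86, adjusted p = 0.00226). SRPX and ITGB8 had 0 counts in MIAPACA2 AM-9747 and at most 9 with vehicle. In PSN1 SRPX rose from 24.2 ± 13.6 to 65.3 ± 14.5 CPM, and ITGB8, an integrin subunit, was at 6.68 ± 2.78 and 16.6 ± 3.91 CPM. KLHDC7B, a kelch protein, was at 0.12 ± 0.11 and 0.597 ± 0.19 CPM in MIAPACA2 and fell from 18.9 ± 3.18 to 1.67 ± 0.25 CPM in PSN1 (difference 5.71 ± 0.72, adjusted p = 0.000332).

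In edgeR's test the responses of the drug's target and of the genes tied to the MTAP deletion had no called difference. PRMT5 was at 39.4, 66.3, 54.9 and 31.3 CPM in MIAPACA2 vehicle and 35.9, 39.7, 62.4 and 42.6 with AM-9747. In PSN1 it rose from 62, 35.5, 51.7 and 53.3 CPM to 140, 90.1, 89.7 and 77.5 (adjusted p = 0.0426). The groups overlapped in MIAPACA2 and not in PSN1, yet the difference, -1.06 ± 0.37, had an adjusted p of 0.0985. Without PSN1 vehicle replicate 1 the difference at PRMT5 was -1.18 (adjusted p = 0.0388). Its cofactor WDR77 had a difference of -0.06 ± 0.25 (adjusted p = 0.931), and all 5 genes of the methylosome list had negative differences with 0 called (1 at an unadjusted p below 0.05, 0 by DESeq2, 1 by voom). MTAP was at 2.75 ± 1.96 CPM or less in each group (difference 1.48 ± 0.88, adjusted p = 0.321). MAT2A, which makes the methyl donor, fell in MIAPACA2 from 468 ± 90 to 208 ± 62.7 CPM and was at 255 ± 195 and 177 ± 101 CPM in PSN1 (difference -0.64 ± 0.61, adjusted p = 0.562). Of 19 genes of methylthioadenosine salvage and polyamine synthesis, edgeR's test called 0, with 2 negative at an unadjusted p below 0.05. DESeq2 called 2 of the 19 and voom 7, all negative, so the lack of calls depended on the tool.

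MDM4, a p53 inhibitor whose splicing is known to depend on PRMT5, was at 42.4 ± 9.98 and 40.4 ± 4.5 CPM in MIAPACA2 and fell from 73.4 ± 4.43 to 36 ± 1.31 CPM in PSN1. Its difference of 0.96 ± 0.24 (adjusted p = 0.0278) was lost without any 1 of 11 single libraries, with a highest adjusted p of 0.0839. Those were MIAPACA2 vehicle replicates 1 to 3, MIAPACA2 AM-9747 replicates 1, 2 and 4, PSN1 vehicle replicates 2 and 4 and PSN1 AM-9747 replicates 1, 2 and 4. The call was also lost without scaling factors, with all genes with at least 1 count, and without PSN1 vehicle replicates 2 and 3. The p53 target CDKN1A, a cell cycle inhibitor, had a difference of -0.39 ± 0.50 (adjusted p = 0.682) and overlapped between treatments in both lines.

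Immediate early genes, which respond fast to growth factor signals, had calls in each line. Of 18 members, 9 fell (6.07% of all genes did) and 1 rose in MIAPACA2, 5 fell (4.58% of all genes) and 1 rose in PSN1, and the difference was called at 2, both negative (2.64% of all genes). At an unadjusted p below 0.05, 7 differences were negative and 1 positive. The PSN1 side depends on scaling: its median response was -0.28, but 0.05 without scaling factors, where 2 members fell and 2 rose. EGR1, a zinc finger factor of this class, fell from 275 ± 42.6 to 35.6 ± 4.97 CPM in MIAPACA2 and from 518 ± 146 to 120 ± 26.2 CPM in PSN1 (difference -0.84 ± 0.31, adjusted p = 0.116). JUNB fell in both lines as well, with responses of -1.42 ± 0.23 and -1.20 ± 0.25 (difference -0.22 ± 0.34, adjusted p = 0.746). ATF3, a stress-induced factor, rose in both, with 1.58 ± 0.21 and 2.17 ± 0.34 (difference -0.60 ± 0.38, adjusted p = 0.348).

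FOS and FOSB, subunits of AP-1, were the members with a called difference. FOS fell from 68.5, 36.8, 52.7 and 79.9 CPM to 8.46, 6.54, 6.09 and 4.2 in MIAPACA2, and from 135, 223, 73.1 and 180 CPM to 51, 57.7, 66.6 and 47.3 in PSN1. Both falls were without overlap and the MIAPACA2 fall was larger (difference -1.78 ± 0.43, adjusted p = 0.0245). Leaving out MIAPACA2 AM-9747 replicate 2, MIAPACA2 AM-9747 replicate 4 or PSN1 AM-9747 replicate 2 ended the call, with a highest adjusted p of 0.0562. FOSB fell from 19 ± 4.46 to 5.13 ± 1.67 CPM in MIAPACA2 and was at 26.2 ± 5.89 and 22.4 ± 4.11 CPM in PSN1 (difference -1.67 ± 0.37, adjusted p = 0.0139).

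Phosphatases that switch off MAP kinases differed in either direction. In their list of 20 MAPK feedback and output genes, 3 called differences were positive (3.05% of all genes) and 2 negative (2.64% of all genes). DESeq2 called 4 positive and 3 negative, against 1617 and 1251 of all 21339 genes. Voom called 5 and 4, against 2161 and 2614 of all genes. DUSP1, induced by stress and growth factors, fell from 62.5 ± 4.06 to 14.2 ± 5.82 CPM in MIAPACA2 and was at 50.1 ± 8.03 and 35.4 ± 13.8 CPM in PSN1 (difference -1.64 ± 0.39, adjusted p = 0.0223). Leaving out MIAPACA2 AM-9747 replicate 2, MIAPACA2 AM-9747 replicate 4, or PSN1 vehicle replicates 2 and 3 ended that call, with a highest adjusted p of 0.0617. DUSP6, specific for ERK, rose from 0.652 ± 0.11 to 1.98 ± 0.39 CPM in MIAPACA2 and fell from 1169 ± 311 to 595 ± 48.5 CPM in PSN1 (difference 2.58 ± 0.32, adjusted p = 0.000239). DUSP5, a nuclear ERK phosphatase, was at 10.4 ± 1.74 and 12.9 ± 1.24 CPM in MIAPACA2 and fell from 207 ± 46.6 to 73.4 ± 1.54 CPM in PSN1 (difference 1.82 ± 0.26, adjusted p = 0.000668).

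Of the genes described next, PLCG1, CAT and MYC did not pass the test of the difference, while MMP14 did. PLCG1, a phospholipase of receptor signalling, rose from 136 ± 9.81 to 655 ± 148 CPM in MIAPACA2 and from 254 ± 88.8 to 786 ± 274 CPM in PSN1 (difference 0.64 ± 0.38, adjusted p = 0.325). CAT, catalase, fell from 49.1 ± 15.1 to 9.66 ± 3.52 CPM in MIAPACA2 and was at 9.37 ± 6.85 and 5.67 ± 1.31 CPM in PSN1 (difference -1.61 ± 0.65, adjusted p = 0.143). Without PSN1 vehicle replicate 1 the difference at CAT was -2.16 (adjusted p = 0.019). MYC fell in MIAPACA2 from 143 ± 27.3 to 82.7 ± 21.5 CPM and was at 371 ± 64 and 333 ± 112 CPM in PSN1 (difference -0.64 ± 0.34, adjusted p = 0.271). MMP14, a membrane-bound matrix protease, rose in both lines and further in MIAPACA2, from 11.9 ± 5.45 to 97.2 ± 30.1 CPM against 16 ± 2.87 to 40 ± 10.5 CPM (difference 1.71 ± 0.45, adjusted p = 0.0358). The MMP14 call was lost without any 1 of MIAPACA2 vehicle replicates 2 and 3, MIAPACA2 AM-9747 replicates 1, 2 and 4, PSN1 vehicle replicates 2 and 4 and PSN1 AM-9747 replicates 2 and 4, with a highest adjusted p of 0.0985. It was also lost without scaling factors, with the mitochondrial share as a covariate, and without PSN1 vehicle replicates 2 and 3.

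Of 26 YAP and TEAD targets, 5 had a called negative difference (2.64% of all genes) and 0 a positive one, with a median of -0.78. A single member was positive at an unadjusted p below 0.05, 1 was called positive by DESeq2 and 0 by voom. MYOF, a membrane repair protein, fell from 562 ± 203 to 291 ± 93.5 CPM in MIAPACA2 and rose from 35.4 ± 16.5 to 94.7 ± 14.2 CPM in PSN1 (difference -2.37 ± 0.51, adjusted p = 0.0117). AMOTL2, a partner and inhibitor of YAP, was at 96.4 ± 23.3 and 90.4 ± 20.6 CPM in MIAPACA2 and rose from 9.22 ± 2.1 to 35 ± 4.91 CPM in PSN1 (difference -2.02 ± 0.31, adjusted p = 0.00148). Of 30 mesenchymal genes tested, 4 had a called negative difference (2.64% of all genes), TGFBI among them, and 0 a positive one, with a median of -0.74. There 4 were positive at an unadjusted p below 0.05, 2 were called positive by DESeq2 and 3 by voom. The sum of the fibroblast markers, part of the mesenchymal state, was 980 to 1628 CPM with AM-9747 against 1682 to 2864 with vehicle in MIAPACA2. In PSN1 it was 154 to 188 against 42.4 to 66.5 CPM. Different genes made up these sums. The MIAPACA2 fall was that of COL1A2, while COL1A1 and PDGFRB, both at 3.68 CPM or less there, were higher with AM-9747. In PSN1 COL3A1 was at 99.2 to 116 CPM with AM-9747 against 10.7 to 35 with vehicle. The part of these markers in the result was not tested. Of 25 matrix metalloproteases and inhibitors tested, 3 had a called positive difference (3.05% of all genes), MMP14 among them, and 0 a negative one, with a median of -0.02. There DESeq2 called 5 positive and 2 negative, voom 4 and 3, and 3 were negative at an unadjusted p below 0.05.

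Other lists had fewer called differences in edgeR's test than the mitosis, replication and stress response lists. Over all 21339 genes tested DESeq2 called 2868, of which 1617 positive and 1251 negative. Voom called 4775, of which 2161 positive and 2614 negative, and 5034 had an unadjusted p below 0.05 in edgeR's test. Of 36 glycolysis and hypoxia genes 2 were called in each direction (3.05% of all genes were called positive and 2.64% negative). DESeq2 called 4 of them in each direction, and voom 4 positive and 12 negative. The angiogenic factor VEGFA of that list was at 45.4 ± 4.85 and 42.8 ± 4.5 CPM in MIAPACA2 and fell from 274 ± 87.9 to 84.2 ± 6.19 CPM in PSN1 (difference 1.61 ± 0.30, adjusted p = 0.00479). Of 40 SR proteins and hnRNPs, splicing factors that include PRMT5 substrates, 4 were called, all negative (2.64% of all genes), but DESeq2 called 13 negative and voom 19 negative and 4 positive. Of 29 Sm, LSm and snRNP proteins 2 were called, both negative (2.64% of all genes), against 7 by DESeq2 and 14 by voom, all negative. Homologous recombination and Fanconi genes had 5 negative (2.64% of all genes) and 1 positive (3.05%) calls among 44. DESeq2 called 10 negative and 1 positive of them, and voom 18 and 2. The p53 targets had 3 positive (3.05% of all genes) and 0 negative calls among 25, with a median of -0.10, and 1 positive call without scaling factors. DESeq2 called 4 positive and 3 negative p53 targets and voom 5 and 4, and at an unadjusted p below 0.05 there were 4 in each direction. Of 78 cytosolic ribosomal proteins, which build the ribosome, 0 had a called difference in edgeR's test, against 3 at an unadjusted p below 0.05, 1 by DESeq2 and 10 by voom. Of 75 nuclear oxidative phosphorylation genes 0 were called, against 17 at an unadjusted p below 0.05, 8 by DESeq2 and 29 by voom. Of the 13 genes of the mitochondrial genome 0 were called, against 2 at an unadjusted p below 0.05, 0 by DESeq2 and 4 by voom, and their differences were all positive with a median of 0.78.

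**Figure D5:**
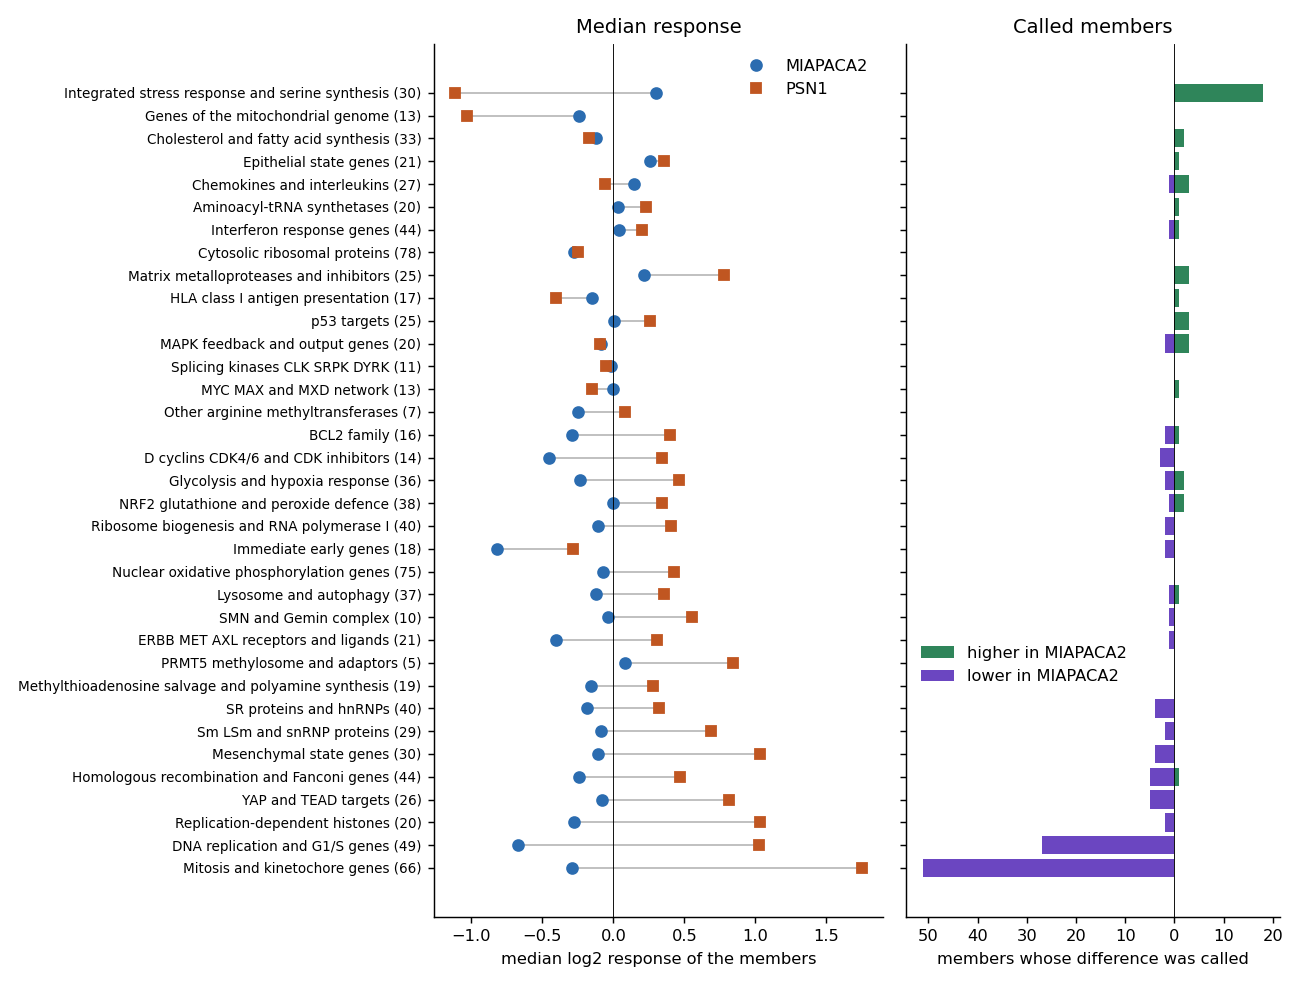
Median log2 response in MIAPACA2 and in PSN1 for each of the 35 gene lists, with the number of members whose difference was called in each direction. The mitosis list (median 1.75 in PSN1, -0.29 in MIAPACA2), the replication list (1.02 and -0.67) and the stress response list (-1.12 and 0.30) have the most calls.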

How the data were processed

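Poly(A) RNA of cultures taken at day 6 was read as gene counts in 4 libraries for each of 4 groups. Per the labels' protocols, RNA was taken with a column kit and made into libraries with a directional NEBNext kit. Per the submitters' processing notes, the tools were fastp 0.19.8, HISAT2 2.2.0, R 4.0.2 and DESeq2 1.34.0, with GRCh38. For the counter, its annotation and its use of strand: not given in the sources used here. Thus overlapping and antisense genes may share reads. The deposited values are raw read counts per gene, with 60366 entries in 24 columns, each matched to a sample by its label. Names and coordinates came from GENCODE 29, which matched 56271 entries.

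From these counts, edgeR 4.0.16 in R 4.3.3 (limma 3.58.1, data.table version 1.17.8) tested the difference on the 16 libraries and each response on its line's 8, with TMM scaling, filterByExpr by group, a quasi-likelihood test and Benjamini-Hochberg adjustment. A floor of 3 counts at 95% confidence stands for 0 counts and covers counting error only. No fold is given for a gene whose group was at or under that floor in each library. On simulated data with 20492 genes, the difference gave 31 calls, 3 of them false (9.677%), and found 40.91% of 4-fold, 1.493% of 2-fold and 0% of 1.5-fold differences.

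Named genes were the 10 largest positive and 10 largest negative differences among called protein-coding genes at 5 CPM or more without overlap in at least 1 line, the 8 strongest opposite responses, up to 3 called members per list and a set of key genes. Of the list members, those that bear on a comparison are printed. Further genes were picked with their values in view. The members and the 35 gene lists were chosen with earlier results of these data known. Alternatives were DESeq2 1.42.0, limma's voom, other scaling and filters, a replicate block, covariates and leaving out libraries. Promoter sequences are from RefSeq. Sequences of genes with no entry in its promoter table were not used here.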

Additional observations from a re-analysis of the deposited data

Results flagged for a closer look

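Log2 differences are given for 59 genes that passed the test of the difference and had no group at the count floor. These values, MIAPACA2 minus PSN1, for amino acid, redox and stress genes were 4.26 for NUPR1, 4.15 for ALDH1L2, 4.13 for CHAC1, 4.03 for ASNS, 3.01 for TRIB3, 2.7 for CTH, 2.63 for PCK2, 2.62 for PHGDH, 2.26 for SLC7A11, 1.90 for PSAT1, 1.89 for DDIT3, 1.89 for SESN2, 1.75 for CBS, 1.46 for SLC7A5, 1.42 for SLC3A2 and 1.2 for ATF4. For mitosis genes they were -4.33 for INCENP, -3.21 for CDCA5, -3.15 for SGO2, -3.03 for MKI67, -2.75 for KIF20A, -2.37 for TOP2A, -2.20 for CCNB1, -2.14 for AURKA and -2.03 for CDC20. For replication genes they were -2.86 for GINS4, -2.77 for FEN1, -2.75 for RRM1, -2.67 for MCM2, -2.39 for MCM4, -2.27 for PCNA, -1.96 for CDC45, -1.66 for E2F1 and -1.59 for GINS1. Other positive differences were 5.71 for KLHDC7B, 3.07 for ASS1, 2.94 for CFB, 2.80 for AKNA, 2.80 for APOE, 2.58 for DUSP6, 2.32 for GALNT12, 1.82 for DUSP5, 1.71 for MMP14, 1.61 for VEGFA and 0.96 for MDM4. Other negative differences were -6.70 for RGS4, -6.36 for FSTL1, -5.46 for NGFR, -5.17 for HDAC9, -3.90 for DKK1, -3.81 for P3H2, -3.17 for TGFBI, -3.10 for APOBEC3B, -2.37 for MYOF, -2.16 for PEG10, -2.02 for AMOTL2, -1.78 for FOS, -1.67 for FOSB and -1.64 for DUSP1.

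Within the groups of 4 libraries, a value far from the other 3 by Dixon's criterion was found in 29 of 312 groups (9.29%), where chance gives about 1 in 20. MIAPACA2 AM-9747 replicate 2 was high for MDM4 (47.1 CPM). MIAPACA2 AM-9747 replicate 3 was high for PEG10 (190 CPM), GINS4 (79.8 CPM), EGR1 (43 CPM), CAT (14.9 CPM), SLC7A5 (108 CPM) and MCM2 (61.4 CPM). MIAPACA2 vehicle replicate 2 was low for FOSB (12.4 CPM). MIAPACA2 vehicle replicate 4 was low for PCK2 (47 CPM). PSN1 AM-9747 replicate 1 was high for CDC20 (182 CPM), TOP2A (112 CPM) and HDAC9 (2.38 CPM) and low for KIF20A (51 CPM). PSN1 AM-9747 replicate 2 was high for MTAP (2.52 CPM) and low for MKI67 (120 CPM). PSN1 AM-9747 replicate 3 was high for INCENP (259 CPM). PSN1 AM-9747 replicate 4 was low for the summed Immediate early genes list (1640 CPM). PSN1 vehicle replicate 1 was high for NGFR (0.209 CPM), HDAC9 (0.12 CPM), GINS4 (3.68 CPM), RRM1 (21 CPM), CCNB1 (73.8 CPM), PCK2 (101 CPM) and the summed Integrated stress response and serine synthesis list (7405 CPM) and low for MDM4 (66.8 CPM). PSN1 vehicle replicate 3 was high for NUPR1 (172 CPM) and CDC20 (64.2 CPM) and low for MYOF (10.8 CPM) and MKI67 (14.5 CPM).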

How the results depend on the processing

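No called difference of a named gene, and no list median of the mitosis, replication and stress response lists, changed sign under the alternatives run. Named genes without a called difference gained a call 7 times under the alternatives. Of these gains 3 were with voom, 2 with a joint fit of all 24 libraries and 2 without PSN1 vehicle replicate 1. Counts of called genes moved more. The difference gave 2868 calls with DESeq2, 4775 with voom, 2388 with a joint fit of all 24 libraries and 793 without PSN1 vehicle replicates 2 and 3, against 1215, and 567 to 4287 without single libraries. The MIAPACA2 response gave 3708 calls with DESeq2, 4765 with voom, 6109 with the mitochondrial share as a covariate and 638 from the fit of 16 libraries, against 2357. Leaving out single MIAPACA2 libraries gave 1109 to 3138. The PSN1 response gave 3730 with DESeq2, 4900 with voom, 4076 from the fit of 16 libraries and 778 without vehicle replicates 2 and 3, against 1669. Leaving out single PSN1 libraries gave 460 to 4172. The cause of these shifts was not tested. Replication calls were 41 with voom against 27.

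The labels do not say whether the replicate numbers pair the samples, and correlations of the deviations do not settle it. Same-numbered deviations correlated at -0.458 to 0.361 in MIAPACA2, over 0.1 in 3 of 4. In PSN1 they correlated at -0.196 to 0.645, over 0.1 in 2 of 4. Deviations with different numbers correlated at -0.646 to 0.662 in MIAPACA2 and -0.664 to 0.360 in PSN1, over 0.1 in 5 of 12 in each line. With a replicate block the calls were 1994 for the difference, 1766 in MIAPACA2 and 3303 in PSN1. The share of called differences that were positive was 53.6%, against 42% with the block, 35.5% without PSN1 vehicle replicate 1, and 46.1% without scaling factors. Leaving scaling out also moved the median response by line, to 0.17 from 0.00 (MIAPACA2) and to 0.39 from 0.07 (PSN1), the median difference from -0.04 to -0.19, and the share of called genes that rose from 46.6 to 75.5% and from 41.9 to 70.2%. Without PSN1 vehicle replicates 2 and 3, calls were lost at ATF4, RRM1, FOSB, CCNB1, EPHB6, PRSS21, DNALI1 and NOX5, besides DUSP1, MDM4 and MMP14. With the spread of each line on its own, they were lost at HDAC9, F2RL3, BIRC7, EPHB6, PRSS21, DNALI1, NOX5, PCK1, NEURL1B, SRPX, KLK6 and ITGB8. The lowest total, 22.4 M counts, was in PSN1 vehicle replicate 3, where 37.6% of counts were mitochondrial and 16646 genes had a count. In simulated data with the spread of these libraries 1.493% of 2-fold differences were found. That simulation changed few genes and gave 31 calls against 1215 in the data. The adjusted p depends on how many genes differ, so that share does not carry over to these libraries.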
